A study of Homo sapiens with 6 samples.

Results

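The BCL2 family decides whether a cell starts the mitochondrial pathway of apoptosis. Of 10 listed genes of this family, 9 had a row among the 19361 rows of the deposited table, and all 9 were kept among the 13552 rows tested. The genes were taken by name: the anti-apoptotic BCL2, BCL2L1 and MCL1, the effector BAX, and the BH3-only genes BCL2L11, BMF, BIK, BID and PMAIP1. BAK1, the other effector on the list, was not analysed here.

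In this family the effectors BAX and BAK1 open pores in the outer mitochondrial membrane. BCL2, BCL-XL (from BCL2L1) and MCL-1 bind and restrain them, and BH3-only proteins such as BIM (from BCL2L11), BMF, BIK, BID and NOXA (from PMAIP1) either occupy these guardians or activate the effectors. In epithelial cells, signalling through receptor tyrosine kinases and the MAP kinase pathway is known to hold down BIM and BMF. The array gave 1 value per gene, so splice forms with opposite function, such as the long and short forms of BCL2L1 and MCL1, were not separated. Protein levels, and the phosphorylation and cleavage that control several of these proteins, were not measured.

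The cells were UMUC-14, an established human bladder cancer line, hybridised to Affymetrix U133 Plus 2.0 arrays. One group of 3 arrays was labelled with lipofectamine, a transfection reagent, and no siRNA was named for it (the reagent-alone controls). The other group of 3 came from cells transfected with an siRNA against the receptor tyrosine kinase FGFR3, and each array had its own siRNA: siFGFR3#35, siFGFR3#36 or siFGFR3#3. The cells were transfected for 40 h. No non-targeting siRNA was analysed here, so having an siRNA and losing FGFR3 cannot be told apart. The labels do not say whether the reagent-alone arrays were separate cultures, so the spread between these arrays may be technical. In the comparison of the 2 groups the siRNA arrays served as replicates, though each had its own siRNA. Its p-values therefore measure a spread pooled over both groups, which includes differences between siRNAs.

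The arrays of the siRNA group differed from each other more than the controls did. Across rows, control arrays correlated at 0.998 and siFGFR3 arrays at 0.985 to 0.991, and the median SD of a row was 0.0536 and 0.129. FGFR3, the target, was at 8.70, 8.75 and 8.74 on the log2 scale in controls. It was at 7.47 with siFGFR3#35, 7.14 with siFGFR3#36 and 8.45 with siFGFR3#3, or 41.7%, 33.3% and 82.2% of the control level. The interferon-induced IFI44L was also uneven, higher than the control mean by 2.91, 5.71 and 1.36 in the same order. Of 10 epithelial and urothelial markers, 7 had a row and all were tested, among them KRT7 at 12.30 and KRT19 at 12.91 in controls. Of 9 leukocyte, 8 fibroblast and 6 endothelial markers with a row, 5, 5 and 4 were too dim to be tested. The summed log2 level of the leukocyte markers was 33.8 to 34.3 in controls and 32.9 to 33.5 in siFGFR3 cells. PTPRC, which defines leukocytes, was among the dim rows. Of the markers tested, GATA3, ELF3, KRT19 and the collagen gene COL1A1 rose by 0.79, 0.43, 0.27 and 0.64, while EPCAM, CD3D, CD79A and THY1 fell by 0.51, 0.47, 0.30 and 0.34; their part in the results below was not tested. In these bulk samples a change in RNA per cell and a change in the share of cells that carry it cannot be told apart.

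Regulatory sequence is shown for BMF, which had the highest mean rise of the 9 genes, and for BCL2L11, whose promoter held the forkhead site. RefSeq promoters of GRCh38.p14, each from 250 bases before to 50 after a start, were listed for 8 of the 10 genes, 14 in all, with 2 starts for BMF. They are printed in the direction of transcription. Capitals mark the GC box GGGCGG in BMF and the forkhead site GTAAACA in BCL2L11, found on either strand.
BMF upstream start, chr15:40108830-40109129, strand -: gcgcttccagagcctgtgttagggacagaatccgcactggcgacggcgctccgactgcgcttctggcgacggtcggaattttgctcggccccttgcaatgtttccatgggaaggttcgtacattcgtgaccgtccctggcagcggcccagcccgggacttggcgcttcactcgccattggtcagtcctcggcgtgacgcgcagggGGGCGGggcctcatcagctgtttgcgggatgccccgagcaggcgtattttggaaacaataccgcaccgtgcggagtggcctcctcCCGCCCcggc
BMF downstream start, chr15:40106917-40107216, strand -: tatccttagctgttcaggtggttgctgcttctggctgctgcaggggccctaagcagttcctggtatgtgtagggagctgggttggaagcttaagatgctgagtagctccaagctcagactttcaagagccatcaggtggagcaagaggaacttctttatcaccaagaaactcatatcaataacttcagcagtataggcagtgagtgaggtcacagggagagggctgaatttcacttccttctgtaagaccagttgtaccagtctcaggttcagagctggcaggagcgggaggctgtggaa
BCL2L11, chr2:111120664-111120963, strand +: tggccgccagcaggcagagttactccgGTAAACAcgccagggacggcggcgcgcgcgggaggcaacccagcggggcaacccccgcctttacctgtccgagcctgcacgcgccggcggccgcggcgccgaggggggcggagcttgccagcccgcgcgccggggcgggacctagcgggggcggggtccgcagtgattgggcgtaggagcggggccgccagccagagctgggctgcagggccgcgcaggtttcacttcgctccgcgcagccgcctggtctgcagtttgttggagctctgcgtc

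The BMF starts differed in composition. The upstream one had 65.0% G and C, 31 CpG dinucleotides and 2 GC boxes, and the downstream one had 50.3%, 1 and 0. Over all 35116 promoters of the table the medians were 58.7% and 14 CpG dinucleotides. The array row does not say which start was used. The forkhead letters GTAAACA were found in 1 of the 14 family promoters, that of BCL2L11, against 3.42% of all promoters. The ETS letters CCGGAAG were in 1 of the 14, at a start of BCL2L1, against 10.3%. GGGCGG was in 10 of the 14, against 45.0%, and the E-box CACGTG in 3, at starts of BAX and BID, against 7.26%. Several BID promoters overlap, so these counts are not independent. These motifs were picked with the expression results known, no motif searched contains another (CACGTG reads the same on both strands), and a match is only a description of the letters.

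The comparison of siFGFR3 cells with reagent-alone cells asked which family genes changed. Of the 9 genes tested, 3 rose: the BH3-only genes BMF and BIK and the anti-apoptotic BCL2L1. None fell and 6 did not pass. The threshold was a Benjamini-Hochberg adjusted p under 0.05, over all rows tested, in limma. Of all rows tested, 45.1% passed in either direction, 20.6% as higher and 24.6% as lower. The 3 of 9 that passed in either direction lay below that background and the 3 of 9 that were higher above it, and with 9 genes nothing particular to the family is read from either. The median change was 0.12 over the 9 genes and -0.04 over all rows. For any 1 gene, the smallest p that exact permutation of 3 and 3 arrays allows is 0.1.

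**Figure D1:**
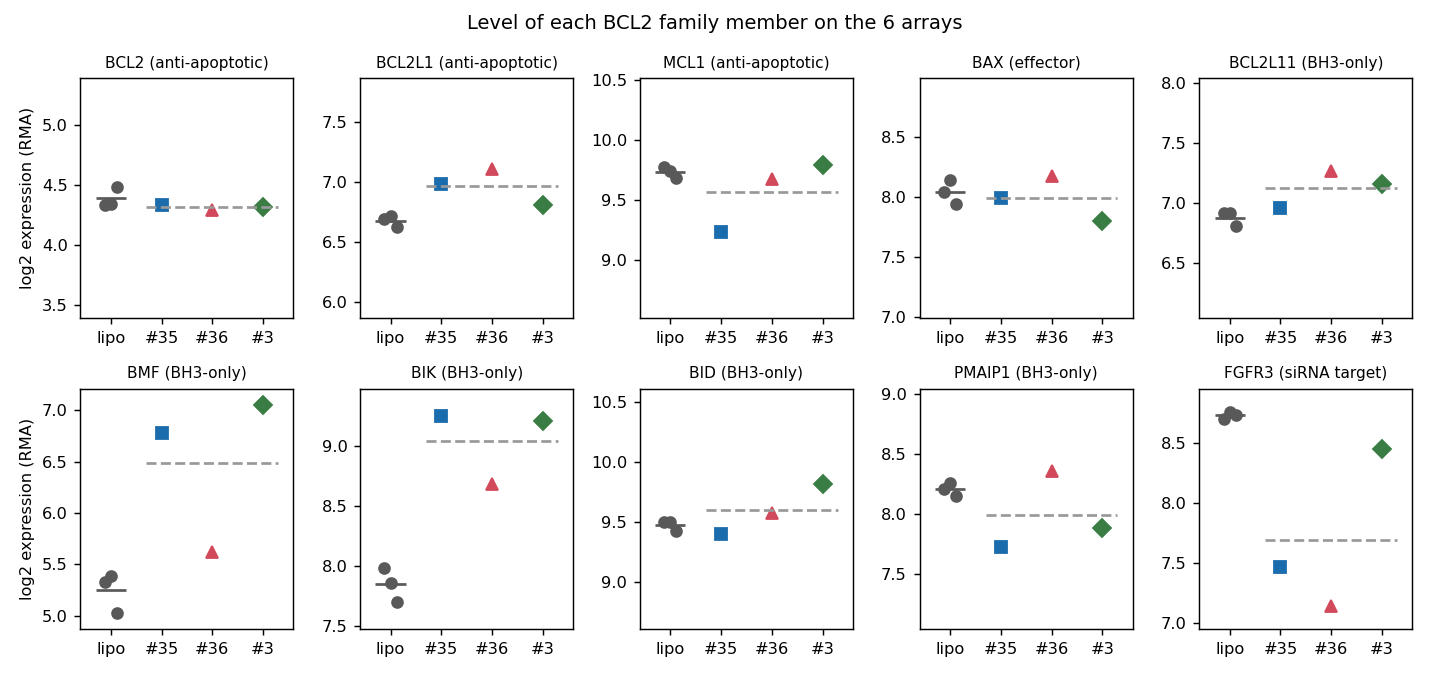
Log2 expression of each family gene and of FGFR3 on every array. Dots on the left of each panel are the 3 reagent-alone arrays, square, triangle and diamond the siFGFR3#35, #36 and #3 arrays, and lines the group means; each panel spans at least 2 log2 units with its own axis. BIK and BMF lie above the controls with every siRNA, while BCL2 moved little.

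Of the 9 genes, BIK had the lowest adjusted p. BIK, a BH3-only protein of the endoplasmic reticulum, was at 7.98, 7.85 and 7.70 in controls. It was at 9.24 with siFGFR3#35, 8.68 with siFGFR3#36 and 9.21 with siFGFR3#3. Every siRNA array lay above every control, with the siFGFR3#36 array the lowest of them. The mean rose from 7.85 ± 0.14 to 9.04 ± 0.32 (SD, n = 3), a rise of 1.20 (SE 0.16; 2.29-fold; limma adjusted p = 0.00178). It kept its call in all 13 alternative settings, with an adjusted p of 0.0133 at most.

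BMF, a BH3-only protein held at the cytoskeleton by a dynein light chain, had the largest mean change of the 9 genes and the widest spread among siRNA arrays. Its levels were 5.33, 5.39 and 5.02 in controls. With siFGFR3#35 it was at 6.77 and with siFGFR3#3 at 7.06, but with siFGFR3#36 at 5.62. The groups did not overlap, though the siFGFR3#36 array lay close to the controls. The mean rose from 5.25 ± 0.20 to 6.48 ± 0.76 (SD, n = 3), a rise of 1.24 (SE 0.34; 2.35-fold; limma adjusted p = 0.0249). The call was lost on leaving out any 1 control (adjusted p = 0.0604 to 0.0896), without siFGFR3#35 (0.0667) and without siFGFR3#3 (0.0675). Without siFGFR3#36 the adjusted p was 0.000227.

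BCL2L11, PMAIP1 and BID are the other BH3-only genes. BCL2L11 encodes BIM, which binds all anti-apoptotic members and can activate BAX. It was at 6.92, 6.92 and 6.81 in controls and at 6.96, 7.27 and 7.16 with siFGFR3#35, siFGFR3#36 and siFGFR3#3. All siRNA arrays lay above all controls, by little with siFGFR3#35. The difference of 0.25 (95% interval 0.03 to 0.47) did not pass (adjusted p = 0.0636 in limma). It passed without siFGFR3#35 (adjusted p = 0.0132), but not on leaving out any other array (adjusted p = 0.104 to 0.192).

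PMAIP1 encodes NOXA, which binds MCL-1 and promotes its breakdown. It was at 8.21, 8.26 and 8.15 in controls and at 7.72, 8.36 and 7.88 with siFGFR3#35, siFGFR3#36 and siFGFR3#3. The siRNA arrays lay on both sides of the controls, with siFGFR3#36 above them and the others below. The mean difference was -0.22 (95% interval -0.58 to 0.15; adjusted p = 0.28 in limma). Without siFGFR3#36 it was -0.40, with an adjusted p of 0.00344, and without siFGFR3#35 -0.08, with an adjusted p of 0.64.

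BID links death receptors to mitochondria once caspase-8 cuts it. It was at 9.50, 9.50 and 9.43 in controls and at 9.40, 9.58 and 9.82 with siFGFR3#35, siFGFR3#36 and siFGFR3#3. The siFGFR3#35 array was the lowest of the 6 and the siFGFR3#3 array the highest. The mean difference was 0.12 (95% interval -0.12 to 0.37; adjusted p = 0.356 in limma). It was 0.22 without siFGFR3#35 and 0.01 without siFGFR3#3 (adjusted p = 0.069 and 0.904).

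**Figure D2:**
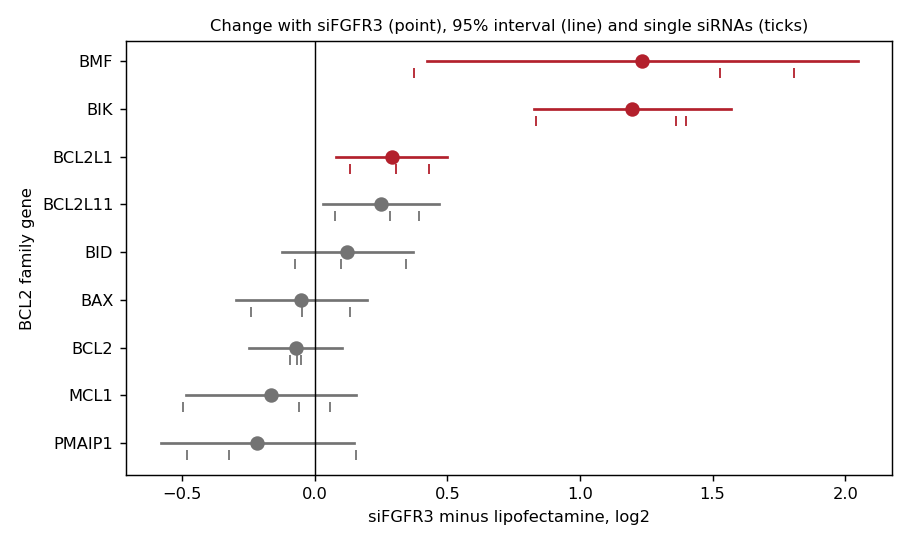
Difference between siFGFR3 and reagent-alone means in log2 units for the 9 family genes, with 95% intervals from limma; ticks under each point give the single siRNA arrays. Red marks an adjusted p under 0.05. BMF (1.24) and BIK (1.20) stand at the top, and the BMF interval is the widest.

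Of the anti-apoptotic genes, BCL2L1 passed. BCL2L1 was at 6.70, 6.72 and 6.62 in controls and at 6.99, 7.11 and 6.81 with siFGFR3#35, siFGFR3#36 and siFGFR3#3. All siRNA arrays lay above all controls, the siFGFR3#3 array least. The mean rose from 6.68 ± 0.05 to 6.97 ± 0.15 (SD, n = 3), a rise of 0.29 (SE 0.09; 1.22-fold; limma adjusted p = 0.0341). The call was lost on leaving out any 1 control (adjusted p = 0.0849 to 0.118), without siFGFR3#35 (0.0633) and with each array centred on its median (0.0902).

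MCL1, a short-lived guardian that cells must keep making, was at 9.78, 9.75 and 9.68 in controls. It was at 9.24 with siFGFR3#35, 9.68 with siFGFR3#36 and 9.79 with siFGFR3#3. The siFGFR3#35 array stood well below all others, and the other siRNA arrays lay at or next to the control range. The mean difference was -0.17 (95% interval -0.49 to 0.15; adjusted p = 0.338 in limma). It was -0.00162 without siFGFR3#35 and -0.28 without siFGFR3#3 (adjusted p = 0.985 and 0.133).

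BCL2, the founding guardian of the family, was at 4.34, 4.34 and 4.48 in controls and at 4.33, 4.29 and 4.32 with siFGFR3#35, siFGFR3#36 and siFGFR3#3. The groups did not overlap, but the siRNA arrays lay only just below the lowest control. The difference was -0.07 (95% interval -0.25 to 0.10; adjusted p = 0.449 in limma), and -0.02 without lipofectamine replicate 3. Its level was near the 3.89 below which rows were left out as dim, and how far it lay above background was not analysed.

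BAX, the effector, was at 8.05, 8.14 and 7.95 in controls and at 8.00, 8.18 and 7.81 with siFGFR3#35, siFGFR3#36 and siFGFR3#3. The groups overlapped. The mean difference was -0.05 (95% interval -0.30 to 0.20; adjusted p = 0.706 in limma). It ranged from -0.14 without siFGFR3#36 to 0.04 without siFGFR3#3. Counted over the family, the arrays did not overlap for 4 genes on the higher side and for BCL2 on the lower side, 5 of 9, against 60.8% of all rows tested.

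Each siRNA was then compared with the 3 controls, with 4 levels in limma. All spread in this model comes from the controls, because an siRNA has 1 array, and the p-values therefore compare arrays, not conditions. These comparisons share the control arrays. With siFGFR3#35, 5 of the 9 genes passed, against 60.7% of all rows. BIK, BMF and BCL2L1 rose by 1.40, 1.53 and 0.31, and MCL1 and PMAIP1 fell by 0.50 and 0.48 (adjusted p = 1.1e-05 and 4.2e-05). With siFGFR3#36, 5 genes passed, against 49.5% of all rows in either direction. All 5 rose: BIK by 0.83, BCL2L1 by 0.43, BCL2L11 by 0.39, BMF by 0.37 and PMAIP1 by 0.16. The share of all rows that passed as higher with this siRNA was not counted. The calls of BMF and PMAIP1 (adjusted p = 0.0369 and 0.0421) were lost without the filter on dim rows (0.0685 and 0.0579) and without the variance trend (0.096 and 0.102), and that of PMAIP1 also without lipofectamine replicate 1 or 3 (0.0964 and 0.0596) and with centred arrays (0.0671). With siFGFR3#3, 6 genes passed, against 60.2% of all rows. BMF, BIK, BID and BCL2L11 rose by 1.81, 1.36, 0.35 and 0.28, and PMAIP1 and BAX fell by 0.32 and 0.24. BIK and BMF were the 2 genes that passed as higher with every siRNA. The share of all rows that did so was not counted, so nothing particular to the family is read from it. BCL2L1 and BCL2L11 were also higher with every siRNA, but each failed to pass with 1 of them. BCL2L1 was higher by 0.13 with siFGFR3#3 (adjusted p = 0.107 in limma). BCL2L11 was higher by 0.08 with siFGFR3#35 (adjusted p = 0.347).

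**Figure D3:**
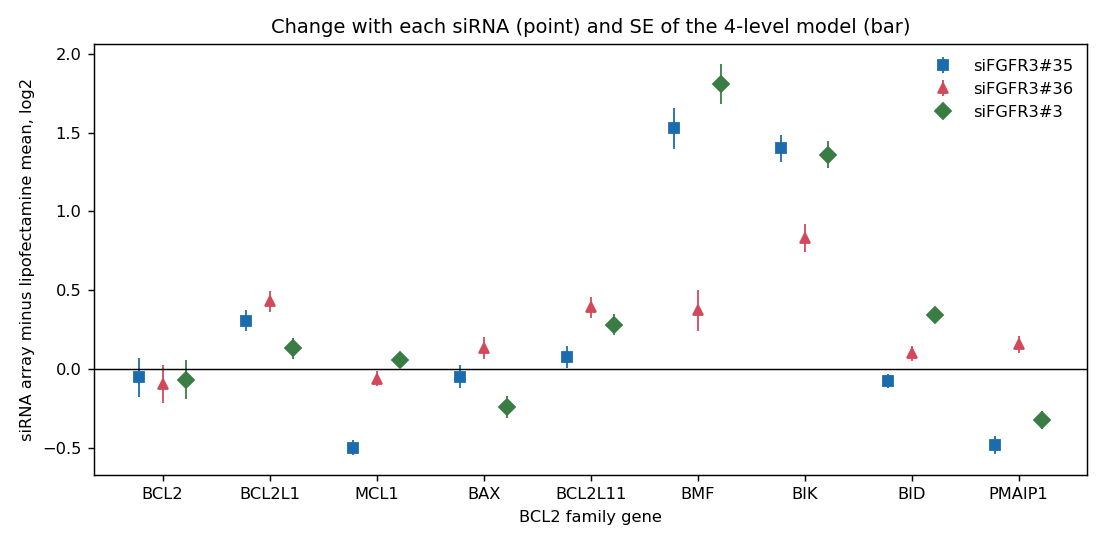
Difference of each siRNA array from the mean of the reagent-alone arrays in log2 units, for the 9 family genes; bars are the SE of the limma model with 4 levels, which takes its spread from the controls. BMF ranges from 0.37 with siFGFR3#36 to 1.81 with siFGFR3#3, and MCL1 is lowest with siFGFR3#35 (-0.50).

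In the same model each siRNA array was set against the mean of the other siRNA arrays. With 1 array an siRNA and all spread from controls that may be technical, a call says that arrays differed by more than the controls did, and whether the siRNAs differ beyond the spread between cultures was not tested. For the siFGFR3#35 array, 6 of the 9 genes passed, against 26.5% of all rows. MCL1 was lower with it, at -0.50 (adjusted p = 0.000131), as were BID at -0.30 (0.00188), PMAIP1 at -0.40 (0.00107) and BCL2L11 at -0.26 (0.0235), while BIK and BMF were higher by 0.30 and 0.44 (0.0383 and 0.042). The calls of BIK and BMF were lost without the dim-row filter (0.0726 and 0.0825), with centred arrays (0.0649 and 0.0607), without the variance trend (0.149 and 0.126) and without lipofectamine replicate 2 (0.101 and 0.0681), and that of BMF also without replicate 1 (0.0573). That of BCL2L11 was lost without the trend (0.0687) and without lipofectamine replicate 2 (0.0549). For the siFGFR3#36 array, 7 genes passed, against 32.2% of all rows. BMF and BIK were lower, at -1.29 and -0.55 (adjusted p = 0.000122 and 0.00183), and PMAIP1, BAX, BCL2L11, BCL2L1 and MCL1 were higher by 0.56, 0.28, 0.21, 0.21 and 0.16. Those of BCL2L11, BCL2L1 and MCL1 did not pass without the dim-row filter (0.0708, 0.0676 and 0.0572), without the trend, or without lipofectamine replicate 1 or 2, and that of BAX did not without the trend (0.0884). For the siFGFR3#3 array, 5 genes passed, against 18.4% of all rows. BMF, MCL1 and BID were higher by 0.86, 0.34 and 0.33, and BAX and BCL2L1 lower, at -0.28 and -0.23 (adjusted p = 0.0287 and 0.0445). BCL2 did not pass in any of these contrasts. Without the variance trend, 3 genes passed for each siRNA array, among 2272, 3106 and 1265 rows for siFGFR3#35, siFGFR3#36 and siFGFR3#3.

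Of the siRNA arrays, siFGFR3#36 had the lowest FGFR3 and the highest IFI44L, and the smallest changes of BMF and BIK. On the same array BCL2L1, BCL2L11, PMAIP1 and BAX were at their highest, above the control mean by 0.43, 0.39, 0.16 and 0.13. The siFGFR3#3 array, with FGFR3 at 82.2% of the control level and the lowest IFI44L, had the largest BMF rise, 1.81. Its BIK rise was 1.36. The part of FGFR3 level and of the interferon response in these differences was not tested. The spread among siRNA arrays exceeded that among controls for 8 of the 9 genes, BCL2 being the exception. The largest ratios to the control SD were 6.30 for PMAIP1, 6.13 for MCL1 and 5.31 for BID. Over all rows the median SD was also larger among siRNA arrays, at 0.129 against 0.0536. The share of all rows with a larger SD was not counted, so nothing particular to the family is read from this.

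For BMF, the genes with the most similar pattern over the 6 arrays were PSG5, ALDH6A1 and RNASE7. Their Euclidean distances from BMF, over the differences from the control mean, were 0.37, 0.42 and 0.46. PSG5 encodes a pregnancy-specific glycoprotein and was higher by 1.52, 0.68 and 1.84 with siFGFR3#35, siFGFR3#36 and siFGFR3#3. ALDH6A1, a mitochondrial dehydrogenase of valine breakdown, was higher by 1.59, 0.33 and 1.43, and RNASE7, an antimicrobial ribonuclease of epithelia, by 1.18, 0.64 and 1.80. They were chosen for this likeness, so their pattern is a description. No family gene passed as lower, so no pattern was sought for a fall.

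Of 15 further family genes, all had a row, 4 were too dim to test (BCL2A1, BCL2L10, BCL2L15 and HRK), 4 rose, 2 fell and 5 did not pass. The 6 of 11 that passed stand beside the 45.1% of all rows, and the median change was 0.08. BCL2L14, a family protein also called BCL-G, rose by 1.33 (SE 0.10), or 2.52-fold, from 4.89 to 6.22 (adjusted p = 0.000357 in limma). Its differences were 1.32, 1.39 and 1.28 with siFGFR3#35, siFGFR3#36 and siFGFR3#3, and no siRNA array passed against the others (adjusted p = 0.675 to 0.967). The mitophagy receptor BNIP3L rose by 0.77 (SE 0.06), whereas its relative BNIP3, a target of hypoxia-inducible factors, fell by 0.56 (SE 0.11). BECN1, a core autophagy protein that binds BCL2, rose by 0.49 (SE 0.07), and MOAP1, a BAX-binding protein, rose by 0.27. BCL2L12 fell by 0.39. On leaving out any 1 control BCL2L12 did not pass (adjusted p = 0.0594 to 0.0703), and MOAP1 did not without replicate 2 or 3 (0.0577 and 0.0537). BBC3 (PUMA), BAD and BOK, which have BH3-only or effector roles, changed by 0.08, -0.11 and 0.15 and did not pass.

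The list of the apoptosome, the caspases and their inhibitors held 23 genes, of which 20 had a row and were tested. Of these 3 rose, 4 fell and 13 did not pass, with a median of -0.02, and the 7 of 20 that passed were fewer than the 45.1% of all rows. CFLAR, an inhibitor of caspase-8 activation, rose by 0.59 (SE 0.10, adjusted p = 0.00336 in limma). The apoptosome scaffold APAF1 rose by 0.38 and the initiator CASP2 by 0.31. BIRC5 (survivin), an inhibitor also needed in mitosis, fell by 0.59 (SE 0.13). DFFA, the inhibitor of the apoptotic nuclease, fell by 0.45, the mitochondrial flavoprotein AIFM1 fell by 0.43 and the adaptor FADD fell by 0.31. CASP9, XIAP, DIABLO and CYCS changed by 0.10, 0.10, -0.18 and -0.19 and did not pass. CASP2 lost its call when any 1 control was left out (adjusted p = 0.0569 to 0.0964), without siFGFR3#35 (0.0528), with array weights (0.0564) and with centred arrays (0.0604). APAF1 lost it without lipofectamine replicate 2 or 3 (0.0577 and 0.0565), which left CFLAR alone to pass as higher.

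**Figure D4:**
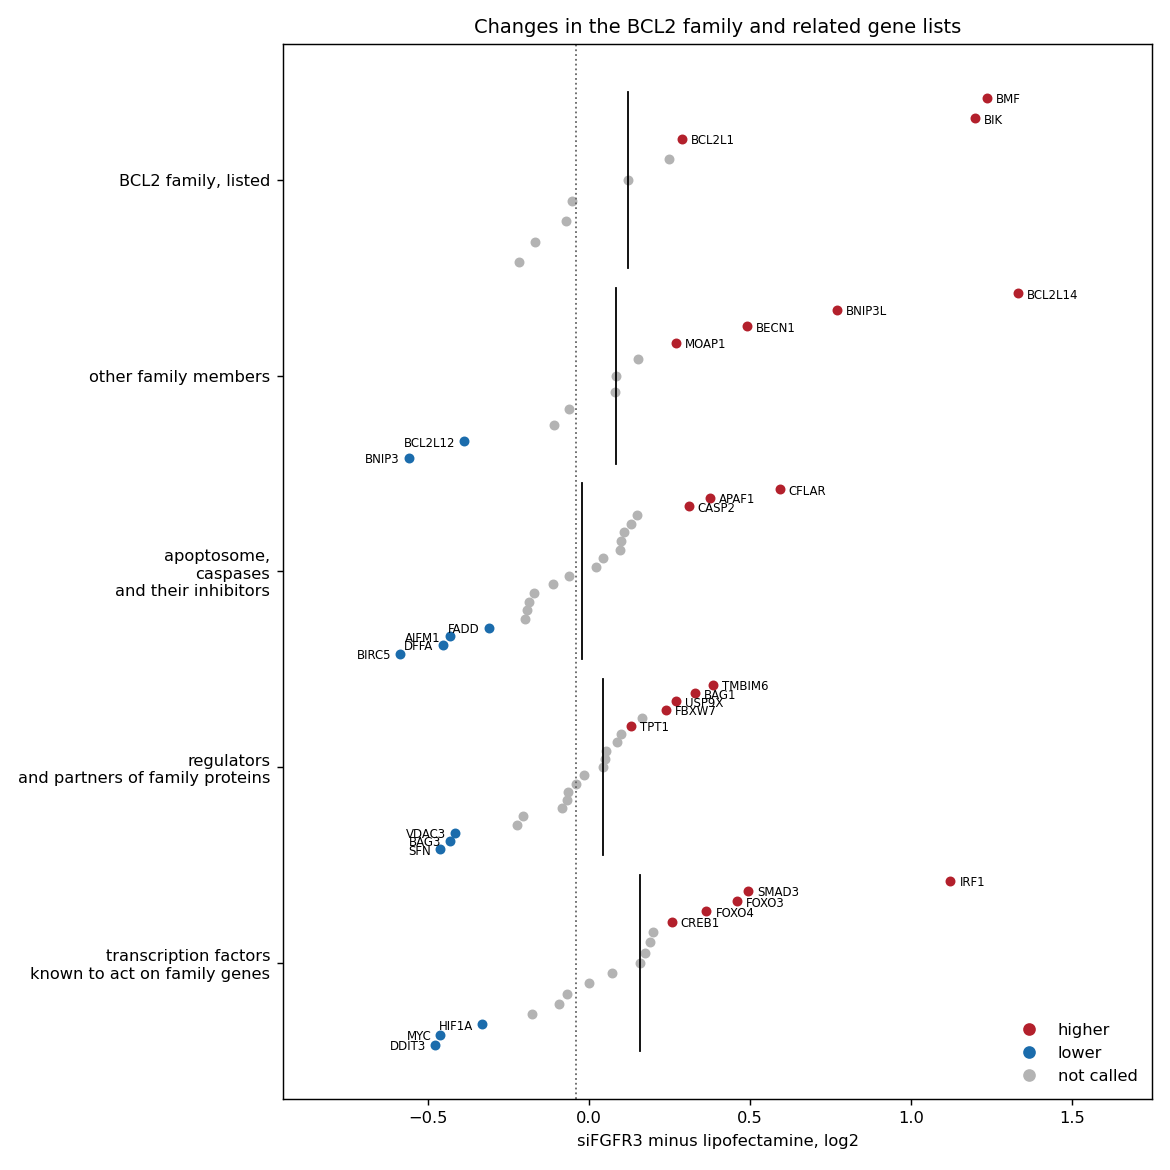
Difference between siFGFR3 and reagent-alone means in log2 units for each tested gene of the 9 family genes and of 4 related lists. Red and blue dots passed as higher and lower, black lines are list medians and the dotted line the median of all rows (-0.04). BCL2L14 (1.33) has the highest value shown.

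Of 24 listed genes for regulators and partners of family proteins, 21 were tested, 5 rose, 3 fell and 13 did not pass, with a median of 0.04. The 8 of 21 that passed were likewise fewer than the 45.1% of all rows. The ER protein TMBIM6 (BAX inhibitor 1) rose by 0.39 (SE 0.07), the co-chaperone BAG1 by 0.33, the MCL-1 deubiquitinase USP9X by 0.27, FBXW7, a ubiquitin ligase subunit that targets MCL-1, by 0.24 and TPT1 by 0.13. The 14-3-3 protein SFN fell by 0.46 (SE 0.05), the co-chaperone BAG3 fell by 0.43 and the mitochondrial channel VDAC3 fell by 0.41. The dynein light chains that hold BIM and BMF, DYNLL1 and DYNLL2, changed by -0.01 and -0.08 and did not pass. Without any 1 of the controls only TMBIM6 among the 5 still passed as higher, and with arrays centred on their median 2 passed. The differences of the others stayed positive.

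Among 17 tested transcription factors known to act on family genes, of 20 listed, 5 rose, 3 fell and 9 did not pass, with a median of 0.16. The 8 of 17 that passed were close to the 45.1% of all rows. IRF1, which interferon induces, rose by 1.12 (SE 0.09, adjusted p = 0.000446 in limma). FOXO3, a forkhead factor known to activate the BIM gene, rose by 0.46 (SE 0.07), SMAD3 by 0.49, FOXO4 by 0.37 and CREB1 by 0.26. DDIT3 (CHOP) fell by 0.48, MYC by 0.46 and HIF1A by 0.33. FOXO1, E2F1 and JUN changed by 0.20, -0.18 and 0.07 and did not pass. Without lipofectamine replicate 1 or 3, 2 of these genes passed as higher in place of 5.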

How the data were processed

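The submitters' processing notes name RMA and affy, and the deposited table holds the authors' normalized log2 values. Versions and the genome build of the probe groups are not given in the sources used here. Per the labels' protocols, 100 ng of total RNA was amplified and biotin-labelled. RMA makes the arrays' distributions of probe signals equal, so a change common to most genes would be reduced. The gene values still differed in their array medians. These were 5.41 to 5.43 in controls and 5.45 to 5.52 in siFGFR3 arrays, with every siRNA array above every control. Arrays have no read depth, and their number limits the precision.

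Rows carry Entrez gene IDs, and 18669 of the 19361 were named through the platform annotation and RefSeq, leaving 692 unnamed. The dimmest 30% of rows by mean level (limit 3.89) were left out. limma 3.58.1 in R 4.3.3 (lmFit, eBayes with a variance trend, two-sided) was run on 13552 rows after a test on simulated data. The simulation gave all arrays of a row the same spread. It therefore does not show how the fits behave with the wider spread of the siRNA arrays. Alternatives were no filter, a filter at 50%, median centring, other variance models, array weights and leaving out each array. Members and lists were chosen with earlier results of these data known. Named were the family genes, every called gene of each list and the 3 rows nearest to BMF; uncalled list genes named as examples were chosen after their values were seen. A planned search for BH3 cores was not run, since no protein sequences were used here.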

Additional observations from a re-analysis of the deposited data

Results flagged for a closer look

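For 8 of the 9 family genes, all but BCL2, an siRNA array differed from the mean of the other siRNA arrays by more than the controls' spread in limma's 4-level model. The largest such difference per gene, on the log2 scale, was -1.29 for BMF and -0.55 for BIK, both with siFGFR3#36, and 0.56 for PMAIP1 with the same siRNA. With siFGFR3#35 it was -0.50 for MCL1 and -0.26 for BCL2L11. With siFGFR3#3 it was 0.33 for BID, -0.28 for BAX and -0.23 for BCL2L1. Each rests on single arrays, so whether the siRNAs differ beyond the spread between cultures was not tested. In each single contrast 18.4% to 32.2% of all rows passed. The 8 genes are those that passed in at least 1 of these contrasts. That share was not counted over all rows, so the 8 of 9 cannot be set against the single-contrast shares. The call of BCL2L11 (adjusted p = 0.0235) was lost when lipofectamine replicate 2 was left out (0.0549) and when no variance trend was fitted (0.0687). The highest adjusted p were those of BCL2L1 (0.0445) and BAX (0.0287). Both calls were lost without the filter on dim rows (0.0704 and 0.0532), without the variance trend (0.0942 and 0.125) and without lipofectamine replicate 1 (0.0847 and 0.0612), and that of BCL2L1 without replicate 2 (0.0875). The calls of BMF, BIK, PMAIP1, MCL1 and BID given here passed in all alternatives run for these contrasts.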

How the results depend on the processing

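BIK kept its call in all 13 alternatives. With each array centred on its median the adjusted p of BCL2L1 was 0.0902. Array weights gave 0.0408 for BCL2L11 and 0.0418 for PMAIP1, so that 1 family gene passed as lower. Spread taken from the controls alone gave 0.00154 for MCL1, 0.00101 for BCL2L11, 0.00736 for BID and 0.000801 for PMAIP1, with 5 family genes higher, 2 lower and 9373 rows called. Without 1 control, 3650 to 3759 rows passed, and 1 family gene passed as higher and 0 as lower. Over all arrays left out in turn the count of rows ranged from 3650 to 7272. Leaving out each array in turn moved the adjusted p of BCL2L1 from 0.0139 to 0.118, BMF from 0.000227 to 0.0896, BCL2L11 from 0.0132 to 0.192 and PMAIP1 from 0.00344 to 0.64. Without siFGFR3#36, 1 family gene passed as lower. Without siFGFR3#3 the uncalled difference of BAX turned positive (adjusted p = 0.716, and 0.193 to 0.986 over the arrays left out).

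With siFGFR3#36, 3 family genes passed as higher than controls without the dim-row filter or without the variance trend. Over all rows 6642 and 6153 passed in either direction in these settings. With siFGFR3#3, 1 family gene passed as lower without the trend, where 7883 rows passed in either direction. Between siRNAs, 3 family genes differed for each siRNA without the trend, among 2272 rows for siFGFR3#35, 3106 for siFGFR3#36 and 1265 for siFGFR3#3. Without the dim-row filter 4 differed for siFGFR3#35, 4 for siFGFR3#36 and 3 for siFGFR3#3, among 3096, 3920 and 2074 rows. On centring 4 differed for siFGFR3#35, among 3799 rows. Calls gained were BID as lower than controls with siFGFR3#35 on centring (-0.17, adjusted p = 0.00649) and BIK for siFGFR3#3 between siRNAs without lipofectamine replicate 3 (0.0237). Between siRNAs, without 1 control, the counts of family genes were 3 to 6, 4 to 7 and 3 to 6 for siFGFR3#35, siFGFR3#36 and siFGFR3#3. The rows called in these settings were 2752 to 4276, 3554 to 4967 and 1727 to 3075 in the same order. Uncalled differences that turned sign on centring were those from controls of BCL2L11 with siFGFR3#35 (adjusted p = 0.783) and MCL1 with siFGFR3#3 (0.733). Between siRNAs they were BCL2, BCL2L1 and BAX for siFGFR3#35 (0.937, 0.843 and 0.726), BCL2 and BID for siFGFR3#36 (0.896 and 0.704) and BCL2 for siFGFR3#3 (0.974). BAX with siFGFR3#35 turned without lipofectamine replicate 2 (0.991; without 1 control, 0.167 to 0.991). The cause of these changes was not tested, except that fewer arrays leave less information. No paired analysis was possible because the siRNA arrays are named by siRNA. Their titles also end in a number, 1 or 2, whose meaning the labels do not give, and which was not used for pairing. BCL2 was too dim for a value with the dimmest 50% of rows left out.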
